A study of Danio rerio with 14 samples.

Results

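The genes fabp2, chia.3 and alpi.1 encode products of the gut epithelium and were measured here in zebrafish liver RNA. All probe sets that the platform annotation assigns to these symbols were taken, which gave 1 probe set for each of the 3 genes, out of 8794 genes that at least 1 probe set measured alone and 15617 probe sets in all. Their Entrez gene IDs are 30708 (fabp2), 406819 (chia.3) and 541539 (alpi.1). All 3 were among the 15134 probe sets tested. The genes were chosen by measured values: fabp2 had the largest decrease of the overfeeding comparison in ahcy+/+ livers, and the 3 were grouped as gut genes with that result known. Values of that comparison are therefore a description: what passed in it was fixed by the choice of fabp2 and supports nothing here.

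The adult fish carried either 2 wild-type copies of ahcy (ahcy+/+) or 1 (ahcy+/-). It is the gene of the enzyme that clears S-adenosylhomocysteine after methylation reactions. All were kept at 28 °C, and for a month 1 mixed-genotype tank got a usual ration while the other got unlimited food. Liver RNA gave 14 single-colour Affymetrix arrays: 4 of regular-diet ahcy+/+, 3 of regular-diet ahcy+/-, 5 of overfed ahcy+/+ and 2 of overfed ahcy+/- samples. The number of arrays limits the precision, and sex, exact age and the nature of the ahcy allele were not given in the sources used here. Since each diet had 1 tank, effects of diet and of tank cannot be told apart. The p-values measure the spread between samples of a tank. The labels describe dissected livers and say nothing of tissue at their edges. The samples are named below by the replicate numbers of their labels.

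Cells that line the gut take up fat, peptides, sugars and bile acids through a brush border of microvilli. FABP2 carries fatty acids inside these absorptive cells, acidic chitinases break down the chitin of food such as crustaceans, and intestinal alkaline phosphatase sits on the brush border, where it removes phosphate from bacterial lipopolysaccharide. In the zebrafish the liver lies against the gut, and exocrine pancreas is spread along both.

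The liver label was checked with hepatocyte markers, of which 17 were measured. Among them fabp1a ran only from 4.80 to 6.04 (log2), and it stays in the mean and in the hepatocyte counts below. The mean level of the 17 per array was 12.25 to 12.92. The lowest of these means was that of regular-diet ahcy+/+ array 9, which also stood apart in fabp10a, the liver-type fatty acid binding protein of fish. It was 13.62 there and 14.25 to 14.3 on the other arrays of its group. Array medians over all probe sets lay between 5.95 and 6.12. Of the 3 genes taken as intestinal, chia.3 had a Pearson r above 0.8 with 8 of 18 other gut genes over the 14 arrays. fabp2 had it with 3 of them and alpi.1 with 0. Of 15133 other probe sets, 102 had an r above 0.8 with chia.3, 133 with fabp2 and 91 with alpi.1. With the mean of those 18 genes r was 0.916 for chia.3, 0.798 for fabp2 and 0.308 for alpi.1. The r of fabp2 with the array medians was 0.803. In such bulk samples, fewer cells of a type and less RNA per cell cannot be told apart.

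fabp2 was high on all regular-diet arrays and low on all but 1 of the overfed arrays. In regular-diet ahcy+/+ livers its log2 level was 8.85 on array 2, 10.79 on array 5, 9.72 on array 6 and 11.89 on array 9. The regular-diet ahcy+/- livers gave 9.90 on array 3, 12.74 on array 7 and 10.54 on array 8. Both groups overlapped widely, with spans of 3.04 and 2.83 log2 units. In overfed ahcy+/+ livers it was 6.88 on array 2, 5.08 on array 3, 5.58 on array 4, 5.42 on array 6 and 5.94 on array 7. The overfed ahcy+/- livers gave 9.10 on array 1 and 5.24 on array 4. All overfed ahcy+/+ arrays lay below all regular-diet arrays, while array 1 of the overfed ahcy+/- group lay within the regular-diet ahcy+/+ range and its partner lay with the other overfed livers.

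chia.3 was high on only 5 of the 7 regular-diet arrays. It was 6.09 on array 2, 11.32 on array 5, 8.55 on array 6 and 10.63 on array 9 of the regular-diet ahcy+/+ group. The regular-diet ahcy+/- values were 6.36 on array 3, 13.15 on array 7 and 10.61 on array 8. Array 2 of the first group and array 3 of the second stood at the level of the overfed livers. After overfeeding chia.3 was 6.01, 6.13, 5.85, 5.51 and 5.86 on arrays 2, 3, 4, 6 and 7 of ahcy+/+ fish. In ahcy+/- fish it was 6.94 on array 1 and 5.76 on array 4. The overfed ahcy+/+ arrays were within 0.62 of each other, against a span of 5.23 in the regular-diet ahcy+/+ group.

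alpi.1 hardly varied. Its level was 5.92, 5.90, 5.98 and 6.02 on regular-diet ahcy+/+ arrays 2, 5, 6 and 9. It was 6.10, 5.94 and 6.13 on regular-diet ahcy+/- arrays 3, 7 and 8. In overfed ahcy+/+ fish it was 6.02, 5.78, 5.85, 5.52 and 5.75 on arrays 2, 3, 4, 6 and 7. The overfed ahcy+/- pair gave 5.54 on array 1 and 5.65 on array 4. Regular-diet array 7 of the ahcy+/- group, where fabp2 and chia.3 peaked, had the lowest alpi.1 of its group, and overfed array 1 of that genotype had one of the lowest values of all.

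**Figure D1:**
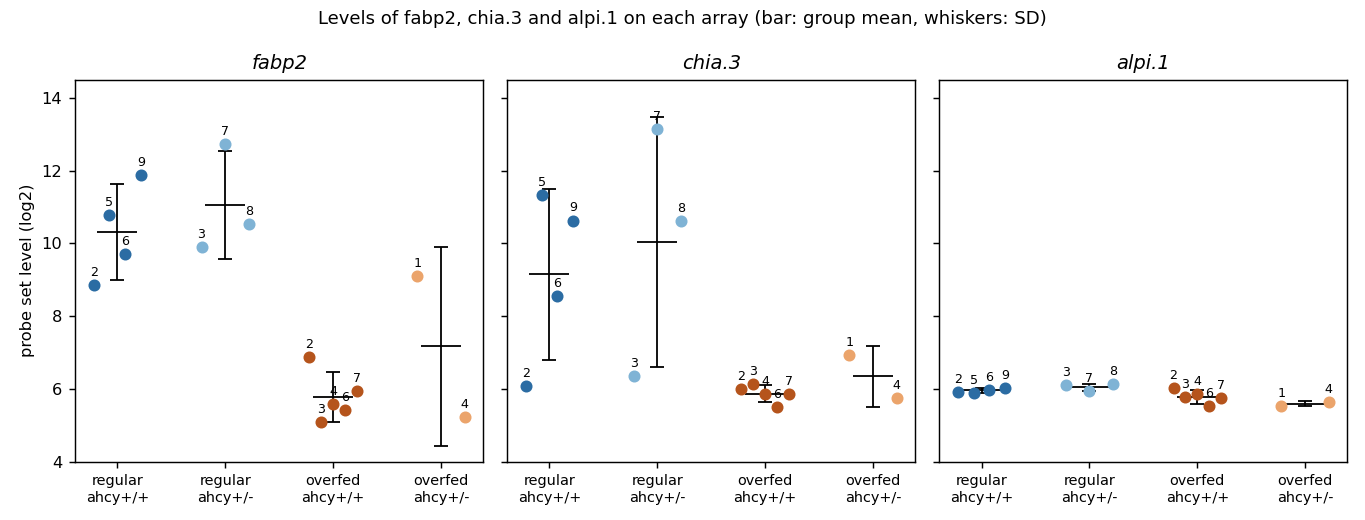
Probe set level (log2, y axis) of fabp2, chia.3 and alpi.1 on each array, by group (x axis); points are arrays with the replicate number of the label, horizontal bars are group means and whiskers are SD. fabp2 spans 7.65 and chia.3 7.64 log2 units over the 14 arrays, and alpi.1 spans 0.611.

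The plot of levels by group shows the spread of the genes beside each other. Over the 14 arrays fabp2 ranged over 7.65 log2 units, and 12 of the 15134 tested probe sets had a larger range. chia.3 ranged over 7.64, with 13 probe sets above it. These arrays include the comparison in which fabp2 had the largest decrease, so a wide range of fabp2 follows from its choice. chia.3 was grouped with it with that result known, and both ranks are descriptions. The alpi.1 range of 0.611 was below the median of 0.849 over all tested probe sets, and 22% of them varied less. The deposited table carries no detection calls, so whether alpi.1, or chia.3 on its low arrays, stood above background was not tested.

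The first comparison was that of overfed with regular-diet ahcy+/+ livers, the one fabp2 was chosen on. The fabp2 mean was 5.78 ± 0.69 (SD, n = 5) in overfed fish, 23.2-fold lower than the regular-diet mean of 10.31 ± 1.32 (SD, n = 4). That is a log2 difference of -4.53 ± 0.81 (SE). Without regular-diet array 9, which stood apart, the difference was -4.01. chia.3 had a regular-diet mean of 9.15 ± 2.35 (SD, n = 4) and an overfed mean of 5.87 ± 0.23 (SD, n = 5), a difference of -3.28 ± 1.19 (SE). Its groups overlapped, since regular-diet array 2 lay below overfed array 3. alpi.1 averaged 5.96 ± 0.06 (SD, n = 4) and 5.78 ± 0.18 (SD, n = 5), a difference of -0.17 ± 0.10 (SE), and its groups overlapped too. For background, 4.5% of all tested probe sets had an adjusted p under 0.05 in limma in this comparison, 1.43% in the lower direction, and 1 of the 3 genes, fabp2, was among them by its choice. At an unadjusted p under 0.05 there were 19.7%. fabp2 was also the only one of the 3 with every overfed array below every regular-diet array, which held for 3.92% of all probe sets. Since the choice of fabp2 rests on this comparison, these counts are no result about the genes.

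The comparison in ahcy+/- livers used other fish, and its differences were not part of that choice. Its SEs, 95% intervals and p-values rest on a spread shared by all 4 groups, the ahcy+/+ arrays behind the choice included. For chia.3 the group SDs ran from 0.23 to 3.43. The differences had the same sign, and none passed over all probe sets with 3 against 2 arrays. For fabp2 the overfed mean of 7.17 ± 2.73 (SD, n = 2) was 14.9-fold lower than the regular-diet mean of 11.06 ± 1.48 (SD, n = 3). Its log2 difference was -3.90 ± 1.1 (SE; 95% interval -6.28 to -1.51; limma adjusted p = 0.156). The size rested on which overfed fish was used: the difference was -5.83 without overfed array 1 and -1.97 without overfed array 4. For chia.3 the means were 10.04 ± 3.43 (SD, n = 3) and 6.35 ± 0.84 (SD, n = 2), 12.9-fold lower. The difference of -3.69 ± 1.62 (SE; 95% interval -7.19 to -0.19) had a limma adjusted p of 0.333, and its groups overlapped. It was -5.53 without regular-diet array 3 and -2.13 without regular-diet array 7. alpi.1 went from 6.05 ± 0.10 (SD, n = 3) to 5.60 ± 0.08 (SD, n = 2), a small difference of -0.46 ± 0.14 (SE; 95% interval -0.76 to -0.15; limma adjusted p = 0.19).

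In these heterozygous livers 0 of the 3 genes passed in limma, where 0.0991% of all probe sets passed and 0.033% passed in the lower direction. At an unadjusted p under 0.05 it was 3 of 3 against 14.2% of all probe sets. The 3 genes were grouped with the fabp2 result known and do not count as independent. Their p-values also share a spread with the ahcy+/+ arrays, so this count is a description. fabp2 and alpi.1 had both overfed arrays below all 3 regular-diet arrays, a pattern held by 19.9% of all probe sets. The alpi.1 values moved with the array medians, at r = 0.791 over the 14 arrays (r = 0.803 for fabp2 and 0.621 for chia.3). With each array centred on its median, the alpi.1 difference in ahcy+/- livers was -0.35 ± 0.13 (SE), while those of fabp2 and chia.3 were -3.79 and -3.58.

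Genotype was compared within each diet to see whether ahcy heterozygotes had other levels of these genes. Each comparison uses an ahcy+/+ group behind the choice of fabp2, so its fabp2 value is a description. The 95% intervals of all these differences held 0. On the regular diet fabp2 was 0.75 ± 0.92 (log2, SE) higher in ahcy+/- livers, with a 95% interval from -1.25 to 2.74. chia.3 was 0.89 ± 1.36 higher (95% interval -2.03 to 3.82) and alpi.1 0.10 ± 0.12 higher (95% interval -0.16 to 0.35). The groups overlapped for all 3 genes, and 0 of 3 genes passed in limma, as did 0.0% of all probe sets (3.03% at an unadjusted p under 0.05, with 0 of these 3). Without regular-diet ahcy+/- array 7, the fabp2 difference was -0.09 and that of chia.3 -0.66.

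After overfeeding fabp2 was 1.39 ± 1.01 (log2, SE) higher in ahcy+/- livers, with a 95% interval from -0.80 to 3.57. Array 1 carried this value, which was -0.54 without it. chia.3 differed by 0.48 ± 1.49 (95% interval -2.73 to 3.69) and alpi.1 by -0.19 ± 0.13 (95% interval -0.46 to 0.09). Again 0 of 3 passed in limma, with 0.0% of all probe sets (1.72% at an unadjusted p under 0.05, and 0 of these 3).

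Whether the diet difference itself depended on genotype was read from the interaction of both. It holds the ahcy+/+ difference that fabp2 was chosen on, so its fabp2 value is a description. For fabp2 it was 0.64 ± 1.37 (log2, SE; 95% interval -2.32 to 3.60), for chia.3 -0.42 ± 2.01 (95% interval -4.76 to 3.93) and for alpi.1 -0.28 ± 0.17 (95% interval -0.66 to 0.09). None passed in limma, as for 0.0% of all probe sets (1.91% at an unadjusted p under 0.05, with 0 of 3 here). The intervals of fabp2 and chia.3 are wide enough to hold differences of several fold either way.

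fabp2 and chia.3 varied together among regular-diet fish, and no such relation was detected for alpi.1. Over the 7 regular-diet arrays the Pearson r of fabp2 and chia.3 was 0.883 (2-sided exact permutation p = 0.00893, adjusted over 3 pairs 0.0268), with a Spearman rho of 0.929 (exact permutation p = 0.00675, adjusted 0.0202). Leaving out the lowest and highest fabp2 arrays, ahcy+/+ array 2 and ahcy+/- array 7, r was 0.679. Both genes were highest on that array 7 and lowest on that array 2. Of the 7 arrays 4 belong to the ahcy+/+ group behind the choice of fabp2, and both genotypes are pooled. chia.3 was grouped with fabp2 with that result known, so these values are a description. The same limit holds for the overfed arrays and, apart from the pooling, for the deviations from group means below. alpi.1 had r = -0.0655 with fabp2 (exact permutation p = 0.884) and r = -0.182 with chia.3 (exact permutation p = 0.678) on the same 7 arrays.

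Among the 7 overfed arrays r of fabp2 and chia.3 was 0.861 (exact permutation p = 0.047, adjusted 0.141), but rho was 0.429 (exact permutation p = 0.354). Without overfed ahcy+/+ array 2 and overfed ahcy+/- array 1, r was -0.24, so the relation there rested on those arrays. Over all 14 arrays r was 0.861 and rho 0.886. These pooled values hold the diet difference that fabp2 was chosen on, so they are a description with no test. The pooled r was 0.827 without the lowest and highest fabp2 arrays. As deviations from the 4 group means, the genes had r = 0.708 (permutation p = 0.0148, adjusted 0.0444). With levels first ranked over the 14 arrays, deviations of the ranks from their group means had r = 0.689 (permutation p = 0.0515, adjusted 0.155).

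The pooled r of fabp2 with alpi.1, again a description, was 0.58, with a rho of 0.622, and r was 0.606 without the lowest and highest fabp2 arrays. As deviations from the group means r was -0.0191 (permutation p = 0.938). With arrays centred on their medians the pooled r was 0.456. For chia.3 and alpi.1 the pooled r was 0.459, rho 0.534, and r 0.558 without the 2 arrays farthest from the chia.3 median.

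**Figure D2:**
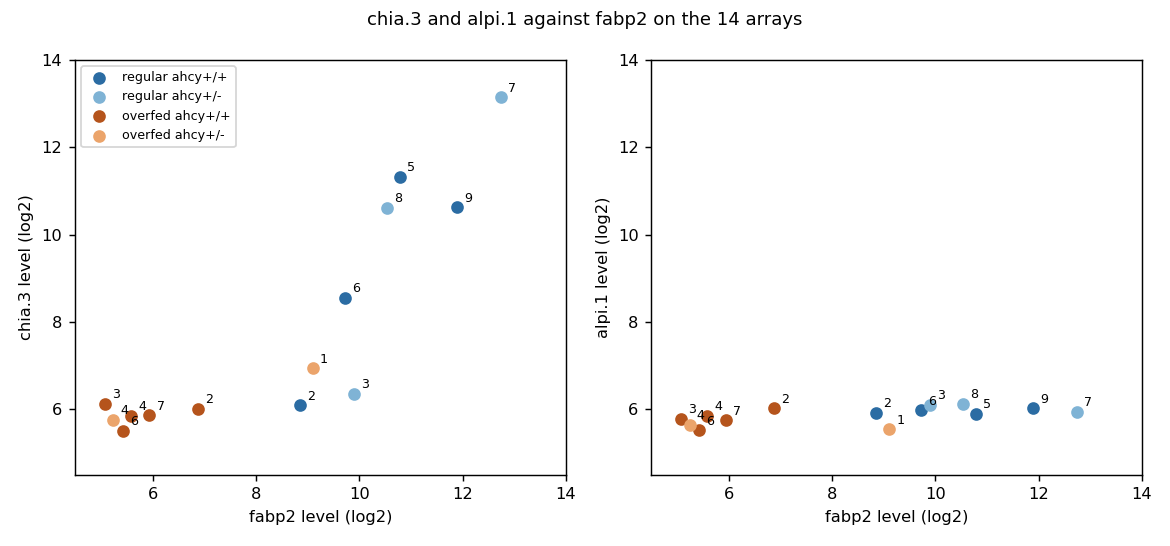
Levels (log2) of chia.3 (left, y axis) and alpi.1 (right, y axis) against fabp2 (x axis); each point is 1 array, coloured by group and numbered by replicate. On the left, chia.3 is below 7 on 9 arrays with fabp2 between 5.08 and 9.90, and reaches 8.55 to 13.15 on the other 5; on the right alpi.1 stays between 5.52 and 6.13.

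The scatter of both genes against fabp2 shows arrays with raised fabp2 and low chia.3. To set the genes side by side on each array, levels were expressed as the rise above a gene's own median over the 5 overfed ahcy+/+ arrays. On regular-diet ahcy+/+ array 2, fabp2 was 3.28 log2 units above that median and chia.3 only 0.23. On regular-diet ahcy+/- array 3, fabp2 was up by 4.33 and chia.3 by 0.51. On the other 5 regular-diet arrays both were raised, fabp2 by 4.15 to 7.16 and chia.3 by 2.69 to 7.30. Overfed ahcy+/- array 1 had a rise of 3.52 in fabp2 and of 1.09 in chia.3.

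Other genes of absorptive gut cells were read beside them. Of a list of 41 such genes 21 were measured, so that 18 remain beside fabp2, chia.3 and alpi.1. Among the 18, rbp2a, apoa4b.1, apoa4b.2 and chia.6 averaged 13.10, 12.59, 11.60 and 10.26 and were high on overfed arrays too. By these probe sets they are no marker of gut cells in these samples, but stay in the counts, the gut gene mean and the covariate below. The other probe set of apoa4b.2, which is not in those, ran from 5.15 to 12.33 and is described further below. Which cells the RNA of these genes came from was not tested. In ahcy+/+ livers 11 of the 18 were lower after overfeeding and 7 higher, and in ahcy+/- livers 12 were lower and 6 higher. Over all tested probe sets 55.6% were lower in ahcy+/+ and 63.1% in ahcy+/- livers, so these counts are near the background. None passed an adjusted p of 0.05 in limma in either, where 4.5% and 0.0991% of all tested probe sets passed. Their median log2 difference was -1.01 in ahcy+/+ and -1.09 in ahcy+/- livers, against medians of -0.03 and -0.09 over all tested probe sets. Without regular-diet ahcy+/+ array 9 the first was -0.16, and without regular-diet ahcy+/- array 7 the second was -0.21.

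The number of these 18 genes raised by more than 1 log2 unit differed widely between regular-diet fish. It was 0 on ahcy+/+ array 2, 8 on array 5, 3 on array 6 and 10 on array 9. In ahcy+/- fish it was 0 on array 3, 11 on array 7 and 7 on array 8. Overfed ahcy+/+ arrays had 0 or 1 raised, overfed ahcy+/- array 1 had 7 and array 4 had 0. The 2 regular-diet arrays with 0 raised were those with chia.3 at the overfed level. fabp2 was at 8.85 and 9.90 on them, above every overfed ahcy+/+ array. For ahcy+/+ array 2 this belongs to the comparison that fabp2 was chosen on and is a description.

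**Figure D3:**
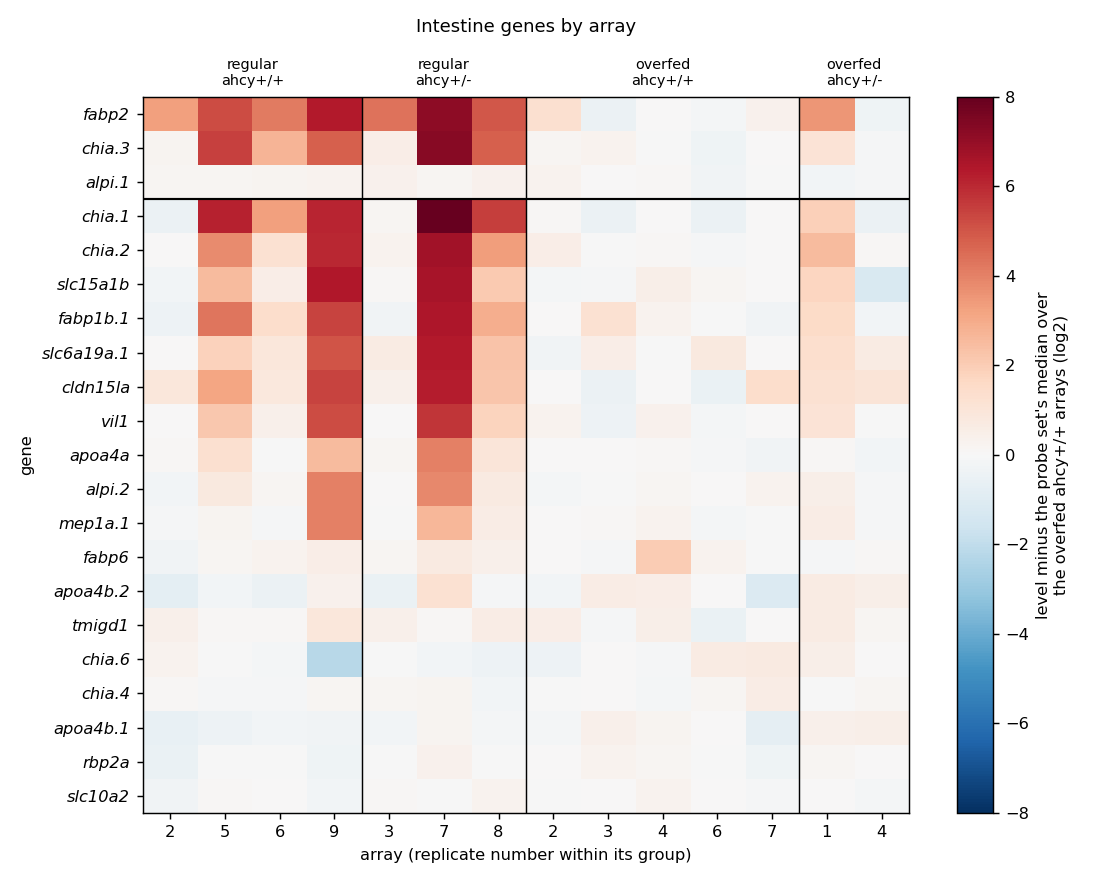
Level of each gut gene (rows) on each array (columns, by group and replicate number) minus that gene's median over the 5 overfed ahcy+/+ arrays (colour, log2). The upper 3 rows are fabp2, chia.3 and alpi.1; fabp2 is raised on all 7 regular-diet arrays, while the genes from chia.2 to mep1a.1 are strongest on ahcy+/+ array 9 and ahcy+/- array 7.

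In the map of gut genes by array, several genes were high on the same few regular-diet arrays. vil1, which bundles actin in microvilli, was 9.69 on regular-diet ahcy+/+ array 9 and 10.18 on ahcy+/- array 7, and 4.03 to 4.82 on the overfed ahcy+/+ arrays. The peptide transporter gene slc15a1b was 9.16 and 9.37 on those 2 arrays, against 2.64 to 3.22 in the overfed ahcy+/+ group. For the neutral amino acid transporter gene slc6a19a.1 the values were 8.0 and 9.28, against 2.66 to 3.73. The tight junction gene cldn15la, the apolipoprotein gene apoa4a and the metalloprotease gene mep1a.1 were highest on the same pair of arrays, mep1a.1 at 9.48 and 8.16. Their diet differences in ahcy+/+ livers were -1.96 ± 1.1 (log2, SE) for vil1, -2.23 ± 1.35 for slc15a1b, -1.75 ± 1.07 for slc6a19a.1, -2.48 ± 1.1 for cldn15la, -1.04 ± 0.67 for apoa4a and -0.98 ± 0.75 for mep1a.1. In ahcy+/- livers these were -2.0 ± 1.5, -2.69 ± 1.84, -2.09 ± 1.45, -1.85 ± 1.49, -1.76 ± 0.91 and -0.84 ± 1.03 in the same order.

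Other genes of the list had small diet differences. The retinol binding gene rbp2a stayed between 12.61 and 13.45 on all arrays, with diet differences of 0.23 ± 0.15 and 0.00 ± 0.20 (log2, SE; ahcy+/+, then ahcy+/-). The ileal bile acid transporter gene slc10a2 differed by 0.15 ± 0.11 and -0.16 ± 0.15, and tmigd1 by -0.30 ± 0.23 and 0.05 ± 0.32. apoa4b.1, another apolipoprotein gene, stood at 11.97 to 13.10, with differences of 0.33 ± 0.19 and 0.49 ± 0.25. The probe sets of apoa4b.2 disagreed. The one with the higher mean differed by 0.27 ± 0.38 and 0.35 ± 0.52, while the other ran from 5.15 to 12.33, differed by -1.98 ± 1.28 and -2.29 ± 1.74, and followed chia.3 at r = 0.936.

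Each gene was next set beside its own family, since close relatives of all 3 are on the array. The chitinase genes fell into 2 sets by their diet differences. chia.1 had diet differences of -3.93 ± 1.49 in ahcy+/+ and -3.82 ± 2.03 (log2, SE) in ahcy+/- livers, and chia.2 of -2.68 ± 1.26 and -2.14 ± 1.71. Over the 14 arrays their Pearson r with chia.3 was 0.991 and 0.935. On regular-diet ahcy+/+ array 2 and ahcy+/- array 3, where chia.3 was low, chia.1 was 3.89 and 4.5 and chia.2 was 5.49 and 5.70. chia.4, at only 4.45 to 5.31 over all arrays, differed by 0.11 ± 0.15 and 0.01 ± 0.21. chia.6, at 8.13 to 11.08, differed by 0.71 ± 0.42 and 0.44 ± 0.57. Their r with chia.3 was -0.172 and -0.496. Whether chia.4 stood above background was not tested. The more distant chid1 differed by 0.08 ± 0.11 and -0.03 ± 0.16. ctbs, which trims chitobiose from glycans in the lysosome, differed by 0.26 ± 0.17 and 1.08 ± 0.24. The latter had a limma adjusted p of 0.105. In the zebrafish assembly GRCz12tu, chia.1, chia.2, ovgp1 and chia.3 follow each other along the chromosome, and chia.4, chia.5 and chia.6 form another such row. Whether probes of the chia genes bind each other's transcripts was not tested, as the probe sequences were not used here.

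The fatty acid binding genes parted in the same way. fabp1b.1, which gut cells express in zebrafish, differed by -2.44 ± 1.27 in ahcy+/+ and -2.36 ± 1.73 (log2, SE) in ahcy+/- livers, and ran from 5.20 to 12.04. Its r was 0.951 with chia.3 and 0.781 with fabp2. On regular-diet ahcy+/+ array 2 and ahcy+/- array 3 it stood at 5.20 and 5.31, below all overfed ahcy+/+ arrays, where fabp2 was raised. The liver gene fabp10a differed by 0.01 ± 0.13 and -0.05 ± 0.18. fabp1a, at only 4.80 to 6.04, differed by -0.21 ± 0.23 and -0.28 ± 0.31. fabp3 differed by 0.25 ± 0.12 and 0.20 ± 0.16, and fabp7a by 0.52 ± 0.30 and 0.44 ± 0.41. fabp6, which binds bile acids in the ileum, ran from 4.69 to 7.03 and differed by 0.26 ± 0.37 and -0.45 ± 0.51. Whether fabp1a and fabp6 stood above background was not tested.

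Among the phosphatases alpi.2, the neighbour of alpi.1 in GRCz12tu, varied where alpi.1 did not. It reached 9.96 on regular-diet ahcy+/+ array 9 and 9.80 on ahcy+/- array 7, and was 5.80 to 6.24 in overfed ahcy+/+ fish. Its r was 0.783 with chia.3 and 0.27 with alpi.1. Its diet differences were -1.13 ± 0.82 and -1.33 ± 1.12 (log2, SE). alpl, the form found in liver and bone, differed by -0.19 ± 0.11 and -0.22 ± 0.15, and had r = 0.716 with alpi.1. Of these relatives of fabp2, chia.3 and alpi.1, 0 of 6, 0 of 6 and 0 of 2 passed an adjusted p of 0.05 in limma in either diet comparison. Over all tested probe sets 4.5% passed in ahcy+/+ and 0.0991% in ahcy+/- livers, so these counts are near the background.

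**Figure D4:**
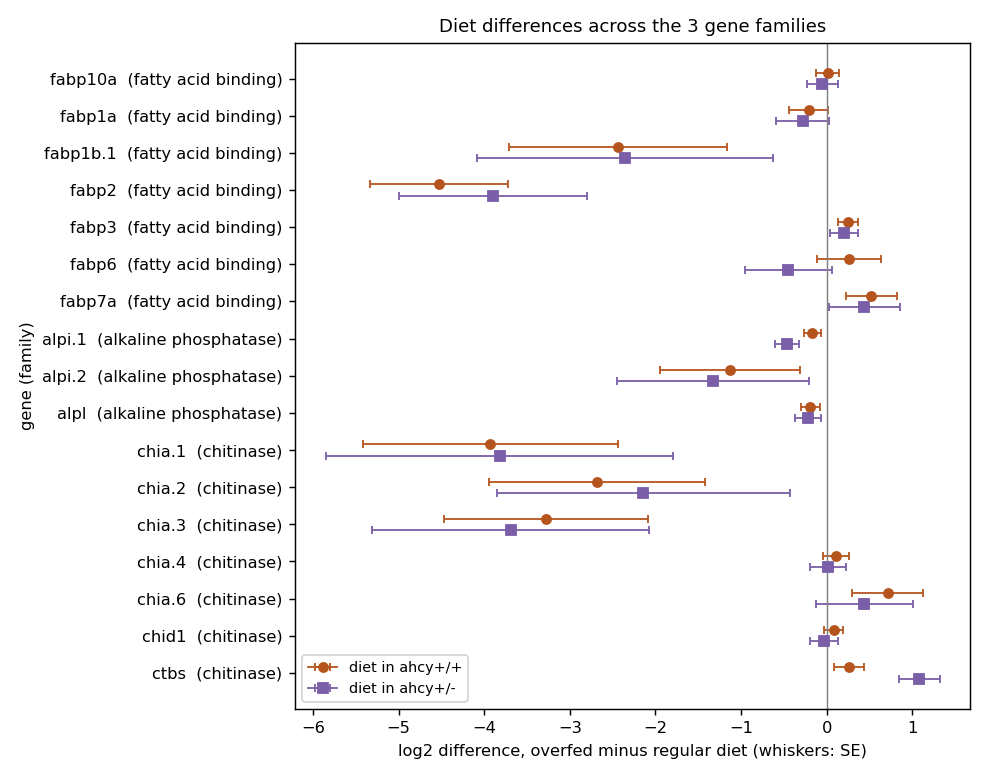
Log2 difference of overfed minus regular-diet livers (x axis) for each measured gene of the 3 families (y axis), in ahcy+/+ (circles) and ahcy+/- livers (squares); whiskers are SE. fabp2, fabp1b.1, chia.1, chia.2, chia.3 and alpi.2 lie below -1 in both genotypes, and the other members lie between -0.46 and 1.08.

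The plot of family differences shows the same 6 genes below -1 in both genotypes. The comparisons rest on different fish of the same tanks, and the same families and lists were known from earlier results of these data.

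By pooled r, which holds the diet difference that fabp2 was chosen on, none of the 8 named genes nearest to fabp2 was on the gut list. Among probe sets of 1 named gene, those with the highest r over the 14 arrays were the vitamin D hydroxylase gene cyp2r1 (r = 0.921), the respiratory complex III gene uqcrc2a (0.915), the nuclear receptor gene nr0b2a (0.908), the sulfotransferase gene sult6b1 (0.896), nol4lb (0.891), alas1, which starts haem synthesis (0.89), pabir2 (0.89) and gorab (0.884). cyp2r1 ran from 4.67 to 9.50 and nr0b2a from 4.84 to 11.02. Without array 7 of the regular-diet ahcy+/- group, where fabp2 was highest, all 8 kept an r of at least 0.865. As deviations from the group means r was 0.414 for pabir2 and 0.83 for uqcrc2a, with the others between. fabp2 had r above 0.9 with 7, above 0.8 with 133 and below -0.9 with 18 of 15133 other probe sets, named or not. It had r above 0.8 with 3 of the 18 gut genes. Among those 15133 probe sets chia.1, chia.3 and chia.2 ranked 21, 25 and 40, with r of 0.865, 0.861 and 0.847. As deviations from the group means, chia.2 (0.854) and slc15a1b (0.839) had a higher r with fabp2 than each of the 8 nearest genes. The other gut genes had at most 0.791.

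Of the 8 genes nearest to chia.3, chia.1, chia.2, fabp1b.1 and apoa4b.2 were on the gut list and the others were not. In order of r, among probe sets of 1 named gene, they were chia.1 (r = 0.991), the apolipoprotein E gene apoea (0.955), fabp1b.1 (0.951), the phosphate transporter gene slc34a2a (0.936), the variable probe set of apoa4b.2 (0.936), chia.2 (0.935), the lectin gene mbl2 (0.93) and plac8.1 (0.912). All 8 kept r of at least 0.875 without the array where chia.3 was highest, and at least 0.879 as deviations from the group means. chia.3 had r above 0.9 with 21, above 0.8 with 102 and below -0.9 with 0 of 15133 other probe sets. Its r was above 0.8 with 8 of the 18 gut genes. These 8 were chia.1, chia.2, fabp1b.1, vil1, slc15a1b, slc6a19a.1, cldn15la and apoa4a.

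For alpi.1 the nearest among probe sets of 1 named gene were ubxn1 (r = 0.963), ppfia1 (0.92), the muscle tropomyosin gene tpma (0.914), the eye and pineal factor gene otx5 (0.912), the tubulin folding gene tbce (0.91), the myostatin gene mstnb (0.887), dnaaf19 (0.874) and pcdh10a (0.864). ppfia1 ran from 5.89 to 6.36, ubxn1 from 8.50 to 9.24 and dnaaf19, the widest of them, from 5.80 to 6.95. alpi.1 had r above 0.8 with 0 of the 18 gut genes and with 91 of 15133 other probe sets. All these correlations share arrays, diets and array medians, and are given as descriptions.

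Markers of other cells that a liver sample can hold were read on the same arrays. Exocrine pancreas enzyme genes, of which 14 were measured, were lower after overfeeding in 14 of 14 cases in both genotypes (55.6% and 63.1% of all tested probe sets were lower in ahcy+/+ and ahcy+/- livers), with 0 passed in limma and medians of -0.99 in ahcy+/+ and -2.43 in ahcy+/- livers. Their mean level per array was 8.44 to 12.50 in regular-diet fish and 6.85 to 11.74 in overfed fish, so the diets overlapped. Overfed ahcy+/- array 1, the overfed array highest in fabp2, was also the overfed array highest in pancreas genes, at 11.74. Regular-diet ahcy+/- array 3 was highest of all at 12.50, and it had fabp2 raised and 0 of 18 gut genes raised. Regular-diet ahcy+/+ array 2 had fabp2 raised with the pancreas mean at 8.44, within the range of overfed ahcy+/+ livers (8.22 to 10.03). The r of the pancreas mean was 0.669 with fabp2 and 0.479 with chia.3.

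Of hormone and mucus genes of the gut wall 6 were measured, and 5 of 6 were lower in both diet comparisons. These and the following counts stand against the same 55.6% and 63.1% of all tested probe sets. Counts passed in limma, here and for the pancreas genes, stand against 4.5% in ahcy+/+ and 0.0991% in ahcy+/- livers. The mean of the hormone and mucus genes was 5.80 to 7.35 in regular-diet fish and 5.71 to 6.25 in overfed fish. The hormone gene gcga among them is also in the endocrine pancreas list below, so these lists are not separate. Of 5 smooth muscle genes, 2 were lower in ahcy+/+ and 4 in ahcy+/- livers, with means of 6.09 to 7.30 in regular-diet and 5.81 to 6.50 in overfed fish. Skeletal muscle genes, with 17 measured, averaged 6.08 to 6.89 in regular-diet and 5.74 to 6.10 in overfed fish, and 16 of 17 were lower in ahcy+/+ and 17 of 17 in ahcy+/- livers, with 0 passed in limma. Their mean had r = 0.83 with fabp2 and 0.837 with chia.3. The array medians lay at 5.95 to 6.12, near these muscle levels, and had r = 0.803 with fabp2 and 0.621 with chia.3. Whether the muscle genes stood above background was not tested. Hepatocyte genes had r = -0.712 with fabp2. After overfeeding 15 of 17 were higher in ahcy+/+ livers, and 13 of 17 in ahcy+/- livers, where 0 passed. In ahcy+/+ livers fga, a fibrinogen chain, and tdo2a, which breaks down tryptophan, passed in limma (both named after their values were seen). Of all 15134 tested probe sets, 465 passed as higher in ahcy+/+ livers and 10 in ahcy+/- livers. The part of the pancreas, gut wall, muscle and hepatocyte markers in the fabp2 and chia.3 levels was not tested.

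**Figure D5:**
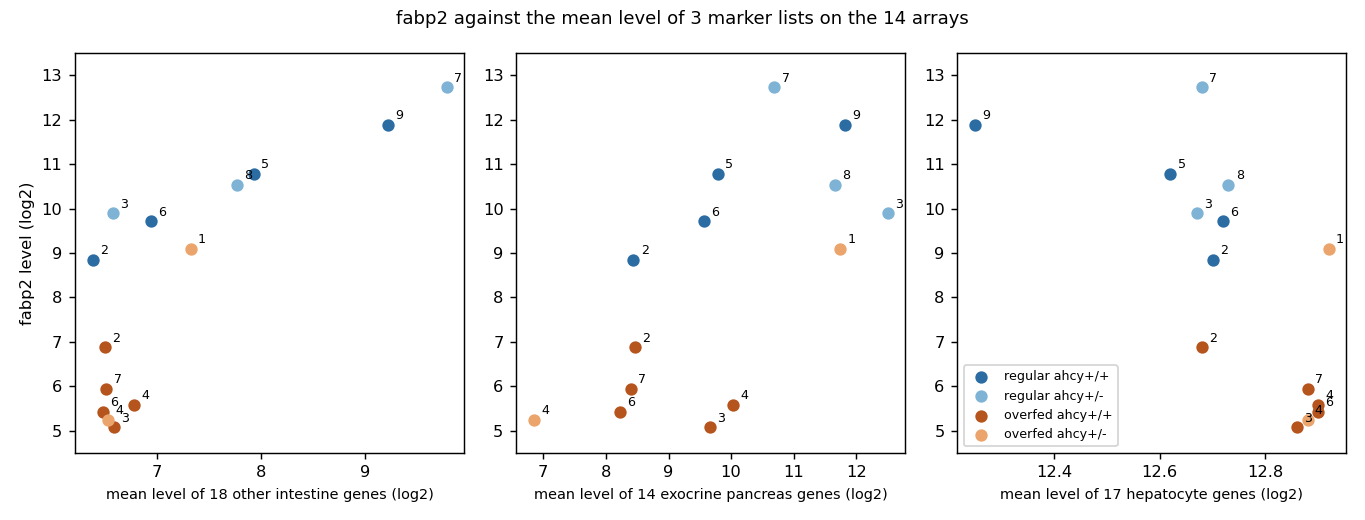
fabp2 level (log2, y axis) against the mean level (log2, x axes) of 18 other gut genes, 14 exocrine pancreas genes and 17 hepatocyte genes; each point is 1 array, coloured by group and numbered by replicate. Regular-diet ahcy+/+ array 2 and ahcy+/- array 3 have fabp2 at 8.85 and 9.90 with a low gut gene mean of 6.38 and 6.57.

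The plot of fabp2 against marker means shows gut gene means of 6.38 to 9.78 in regular-diet and 6.48 to 7.32 in overfed fish. With that mean as a covariate, a fit chosen after seeing the data, the fabp2 difference was -3.41 ± 0.57 (log2, SE) in ahcy+/+ and -2.69 ± 0.75 in ahcy+/- livers. That of chia.3 was -1.40 ± 0.61 and -1.69 ± 0.80. The mean holds genes that hardly varied, such as rbp2a, and also chia.1 and chia.2, which followed chia.3 closely. This fit therefore cannot show what difference remains without gut tissue, and the part of such tissue was not tested. The ahcy+/+ value of fabp2 is again a description. Leaving aside regular-diet ahcy+/+ array 9 and ahcy+/- array 7, the arrays highest in gut genes, fabp2 differed by -4.01 ± 0.74 and -3.06 ± 1.01 and chia.3 by -2.78 ± 1.06 and -2.13 ± 1.45. The pooled r of fabp2 with chia.3 over the remaining arrays was 0.773.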

How the data were processed

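The authors deposited 1 table of probe set values for 14 arrays, read as log2 from their range (0.464 to 14.738). The submitters' processing notes name GCRMA and Partek, with no version or order. Scanner files and probe sequences were not used here. Control probe sets (115) were left out, and so were 368 probe sets that exceeded 4 (log2) on fewer than 2 arrays, leaving 15134. Symbols came from the platform annotation (10711 matched by Entrez ID to RefSeq genes, 1 updated). A linear model of the 4 groups was fitted with limma 3.58.1 (R 4.3.3; lmFit, eBayes; no covariate) over 14 arrays, with Benjamini-Hochberg adjustment over the tested probe sets and a threshold of 0.05. The fit was tested on simulated data. Correlations of deviations from group means were tested exactly, over all rearrangements of the 14 arrays within their groups. Those within a diet were tested exactly over 7 arrays (scipy 1.17.1). A gene stood for its probe set with the highest mean. Groups, replicate numbers and diets came from the labels. One overfed ahcy+/+ sample is numbered 4 in its title and otherwise in its description, and the title was used.

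Members and gene lists were chosen with earlier results of these data known. Named genes were the members, their measured families, the measured gut list, up to 4 genes of each other list, and the 8 nearest genes of each member. Alternatives were no filter, a filter at 6, a trend with robust moderation, quantile normalization, median centring, array weights, the compared groups alone, the replicate number as a block, leaving out each array, and 2 fits chosen after seeing the data (gut gene mean as covariate; without the 2 arrays highest in it).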

Additional observations from a re-analysis of the deposited data

Results flagged for a closer look

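Of 60 groups of 4 or 5 arrays of the members, their families and the gut list (30 probe sets), 4 had 1 array far from the rest by Dixon's test, and chance gives about 1 in 20 groups. On regular-diet ahcy+/+ array 9, mep1a.1 was 9.48 (5.37 to 5.72 on the other arrays of its group), chia.6 was 8.13 (others 10.22 to 10.63) and fabp10a was 13.62 (others 14.25 to 14.3). On overfed ahcy+/+ array 4, fabp6 was 7.03 (others 4.88 to 5.29). No value of fabp2, chia.3 or alpi.1 stood out in this way. Groups of 3 and 2 arrays were not tested.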

How the results depend on the processing

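The fabp2 difference in ahcy+/+ livers, on which fabp2 was chosen, was -5.02 to -4.01 without 1 array, which shows nothing of its stability. With a replicate block it was -3.14 ± 0.70, and 0 members passed. Same-numbered samples had correlations of deviations from group means of -0.23 to 0.162. These are too few to show whether samples of the same number shared any processing, which was not tested. Probe sets past the test in ahcy+/+ livers were 1949 with array weights, 6 with the replicate block and 1402 without the 2 arrays highest in gut genes. Leaving out 1 array gave 253 (without overfed array 6) to 1341 (without regular-diet array 9), with 264, 300 and 335 without regular-diet arrays 2, 5 and 6 and 391 without overfed array 4. In ahcy+/- livers they were 0 for the compared groups alone, 80 with array weights, 31 after quantile normalization, 64 after centring, 0 with the replicate block, 41 without those 2 arrays and 31 with the gut covariate, and 0 (without overfed ahcy+/- array 4) to 91 (without regular-diet ahcy+/+ array 9) without 1 array. The genotype comparison on the regular diet had 1 without the 2 arrays, and the interaction 1 with no filter. Genotype after overfeeding and the interaction had 0 to 4 without 1 array (4 without overfed ahcy+/- array 1). The causes were not tested.

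Signs turned for differences that did not pass. On the regular diet the chia.3 genotype difference was -0.33 with array weights and -0.17 without the 2 arrays; without 1 array it was -0.66 to 2.73, that of fabp2 -0.09 to 1.33 and the gut median -0.45 to 1.16. After overfeeding fabp2 was -0.34 and chia.3 -0.09 with the replicate block, and chia.3 -0.15 with the gut covariate; without 1 array fabp2 was -0.54 to 3.32, chia.3 -0.11 to 1.07 and the gut median -0.09 to 0.57. The interaction of chia.3 was 0.82 with array weights and 0.65 without the 2 arrays, and that of fabp2 -3.02 with the replicate block. Without 1 array these were -2.25 to 1.14 and -1.29 to 2.57, and the gut median -0.75 to 0.76. The r of fabp2 and alpi.1 was 0.464 after quantile normalization, 0.456 after centring and 0.572 without the 2 arrays, and 0.51 to 0.704 without 1 array. That of chia.3 and alpi.1 was 0.383 to 0.553, and that of fabp2 and chia.3 0.821 to 0.91. Low signal could not be told from background without detection calls.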

Other observations

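Endocrine pancreas genes were high on the same regular-diet ahcy+/+ array 9 on which many gut genes were high. Their mean over 6 genes was 8.85 there and 5.41 to 5.99 on the other arrays of its group, and ins ran from 5.55 to 12.58 over all arrays. On regular-diet ahcy+/- array 7, where the gut mean was highest (9.78), the endocrine mean was 5.62. Of these 6 genes, 6 were lower after overfeeding in ahcy+/+ and 5 in ahcy+/- livers, against 55.6% and 63.1% of all tested probe sets. In limma 0 of them passed, against 4.5% and 0.0991% of all tested probe sets. The gene gcga counts in this list and among the hormone and mucus genes of the gut wall.

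For other lists, medians of the diet difference in ahcy+/+ and ahcy+/- livers were -0.03 and -0.01 (log2) for 8 bile duct genes, 0.15 and 0.45 for 6 red cell genes, -0.32 and 0.05 for 11 leukocyte genes, and -0.09 and -0.23 for 9 ovary genes, with 0 passed in each. Of all tested probe sets 4.5% and 0.0991% passed in these comparisons. The leukocyte mean had r = 0.164 with fabp2 and 0.208 with chia.3 over the 14 arrays.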
